A study of Mus musculus with 18 samples.

Results

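The expression of 8 genes that write, keep or remove DNA methylation was followed in mouse embryonic fibroblasts (MEF, a cell line from ATCC) carrying a miR-29b expression vector. The 8 genes were Dnmt1, Dnmt3a, Dnmt3b, Tet1, Tet2, Tet3, Tdg and Uhrf1. They were chosen by name, each matched exactly 1 row, and the whole table held 55450 genes. Cells were transfected with empty pcDNA3, with the Col1a1-miR-29b vector or with the CMV-miR-29b vector. After 6 h they were given TGF-β for 24 h or left without it, which gave 6 groups of 3 libraries. Both miR-29b vectors carried the human miR-29b-1 precursor. In the first a rat Col1a1 promoter, which responds to fibrotic stimuli, drove it, and in the second the constitutive CMV promoter did. Plasmids were delivered by lipofection, with more DNA by mass for the larger Col1a1-miR-29b vector, and the share of cells that took them up was not analysed here. All groups shared the same cell source and the transfection itself. Both miR-29b plasmids also carried EGFP behind the promoter of miR-29b and mRFP1 behind an SV40 promoter, and the control was empty pcDNA3. In a difference from the empty vector, the part of miR-29b therefore cannot be told apart from that of these reporters.

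Poly(A) RNA was sequenced, and counts per gene summed to between 65898017 and 80332633 in a library. The letters c, d and e name the libraries of a group as the labels do, and 1 library in each Col1a1-miR-29b group is called unlettered, because its column carries a letter that no label has. Fibroblast markers were uneven. Col1a1, Fn1, Vim and Col1a2 averaged 197, 137, 109 and 68.3 FPKM, a read count scaled by transcript length and library size, whereas Thy1 had 0 to 8 counts and Lum had 0 counts in every library. Markers of other cells were mostly low: Ptprc had 0 to 25 counts, Epcam 0 to 4, Krt8 0 to 27, Pou5f1 0 to 8 and the endothelial Kdr, Pecam1 and Cdh5 0 to 26, 22 to 76 and 25 to 152, while Nanog had 68 to 172 and the macrophage and lysosome marker Cd68 averaged 7.99 FPKM. The row of the mouse Mir29b-1 gene, which also collects reads from the vector's precursor, had 0 counts in all 6 empty vector libraries. It had 110, 115 and 309 counts in the untreated CMV-miR-29b libraries and 214, 203 and 293 after TGF-β. Cells with the Col1a1-miR-29b vector had 0, 1 and 1 counts when untreated and 4, 2 and 6 after TGF-β. These are reads of precursor RNA, and mature miR-29b was not measured.

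DNA methylation at CpG sites is laid down by the de novo methyltransferases Dnmt3a and Dnmt3b and copied after replication by Dnmt1, which Uhrf1 guides to hemimethylated DNA. The Tet enzymes oxidise 5-methylcytosine, and the glycosylase Tdg cuts out some of the oxidised bases so that repair can put back an unmodified cytosine. The miR-29 family is known for binding the 3′ untranslated regions (UTRs) of collagen mRNAs and of several of these enzymes, and a microRNA pairs with its target mainly through its seed, bases 2 to 8. Mature miR-29b-3p has the same sequence in mouse and human. In fibroblasts TGF-β raises collagen and contractile genes.

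The mature sequence is shown first, because the search for target sites started from it. It is the RefSeq entry in build GRCm38.p6, encoded at chr6:31063025-31063047 on the minus strand and at chr1:195037091-195037113 on the plus strand, and capitals mark the seed.
mmu-miR-29b-3p: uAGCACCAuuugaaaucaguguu
The seed was searched on the transcript strand in the longest annotated 3′ UTR of every gene (GENCODE M21, GRCm38). An 8mer is TGGTGCTA, a 7mer-m8 is TGGTGCT without the last A, and a 7mer-A1 is GGTGCTA without the first T. A match was counted once, in its longest class. A match is a run of letters and not a measured binding site. The following 9 sites are shown as 30-base windows with the match in capitals. They are all 8mers of the members, and for Dnmt3b, which has none, its 7mer-m8.
Dnmt3a, chr12:3911383-3911412, plus strand: gcccttgcccaggggaggtagcTGGTGCTA
Dnmt3a, chr12:3911452-3911481, plus strand: acataccagcggggtcccaagcTGGTGCTA
Dnmt3b, chr2:153686605-153686634, plus strand: ggctgcttagagtagcccggcaTGGTGCTc
Tet1, chr10:62806042-62806071, minus strand: aatgaaggtttcttgaaggagaTGGTGCTA
Tet2, chr3:133465116-133465145, minus strand: tgaagaaaaattcacatcacgaTGGTGCTA
Tet2, chr3:133466173-133466202, minus strand: ctgtttgggtgttaacattaaaTGGTGCTA
Tet3, chr6:83363777-83363806, minus strand: tgccaccaaggccgcttttagtTGGTGCTA
Tet3, chr6:83364336-83364365, minus strand: tgaattgaaatagtctaataaaTGGTGCTA
Tdg, chr10:82649655-82649684, plus strand: gtggctgctcatgcattttccaTGGTGCTA

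The members were unequal in these matches. Tet3 held 10 in a 3′ UTR of 5669 bases, Tet1 8 in 7962, Dnmt3a 6 in 6696, Tet2 5 in 3058, Tdg 3 in 2079 and Dnmt3b 2 in 1331. Dnmt1, with 312 bases, and Uhrf1, with 984, held none. Of the 21037 genes with an annotated 3′ UTR, 16.03% held at least 1 match, 2.96% at least 2 and 0.742% at least 3. Longer UTRs hold more matches, so each member was also set beside other UTRs of 0.8 to 1.25 times its own length. None of 768 such UTRs held as many matches as Tet3 and none of 307 as many as Tet1. For Tet2 the share was 0.0417% of 2400, for Dnmt3a 0.391% of 511, for Tdg 0.520% of 3079 and for Dnmt3b 1.90% of 3109. Over all 3′ UTRs there were 0.1355 matches per 1000 bases, against 1.76 in Tet3, 1.64 in Tet2, 1.503 in Dnmt3b, 1.44 in Tdg, 1.005 in Tet1 and 0.896 in Dnmt3a. In Tet3, 6 of the 10 matches lay between bases 3699 and 4258 after the stop codon, among them both 8mers, and in Dnmt3a the 8mers lay at bases 3658 and 3727. A further 7mer-m8 of Dnmt3a lay in the 3′ UTR of a shorter transcript. Which 3′ ends these cells used was not analysed here.

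**Figure D1:**
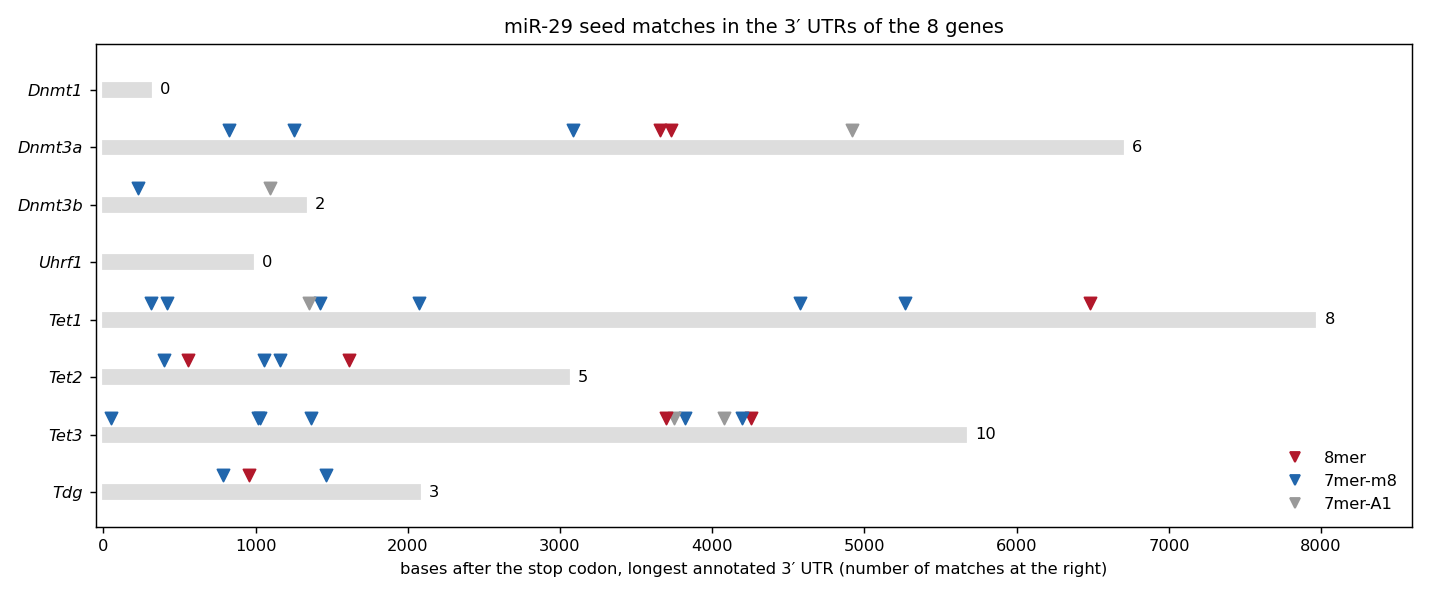
Positions of miR-29 seed matches along the longest annotated 3′ UTR of each gene (horizontal axis, bases after the stop codon; grey bars, the UTR to scale; triangles coloured by class; number of matches at the right). Tet3, Tet1, Dnmt3a and Tet2 hold 10, 8, 6 and 5 matches, and Dnmt1 and Uhrf1 hold none.

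In GRCm38 the maintenance genes lie at chr9:20907209-20952979 on the minus strand (Dnmt1, ENSMUSG00000004099) and at chr17:56303321-56323486 on the plus strand (Uhrf1, ENSMUSG00000001228). The de novo genes lie at chr12:3806007-3914443 (Dnmt3a, ENSMUSG00000020661) and chr2:153649450-153687730 (Dnmt3b, ENSMUSG00000027478), both on the plus strand. The Tet genes are all on the minus strand, at chr10:62804570-62908996 (Tet1, ENSMUSG00000047146), chr3:133463679-133545139 (Tet2, ENSMUSG00000040943) and chr6:83362373-83459084 (Tet3, ENSMUSG00000034832). Tdg (ENSMUSG00000034674) lies at chr10:82629828-82650799 on the plus strand.

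The maintenance pair was by far the most abundant. Per length, Uhrf1 averaged 62.7 FPKM and Dnmt1 55.4 FPKM over the 16 libraries with usable FPKM, and together they made up 84.3% to 87.3% of the members' summed FPKM. Tet3 followed at 6.17 FPKM, Tdg at 5.27, Dnmt3a at 3.88, Dnmt3b at 1.795, Tet2 at 1.75 and Tet1 at 0.613. Uhrf1 was above Dnmt1 in 16 of 16 libraries although their ranges met (56.1 to 69.05 against 50.9 to 61.75 FPKM), and Dnmt1 stood clear of all the genes after it. Tet3 was above Tdg in 15 of 16 libraries and Tdg above Dnmt3a in 16, again with ranges that met. Dnmt3b (1.56 to 2.08 FPKM) and Tet2 (1.22 to 2.30 FPKM) could not be ordered, since Dnmt3b was higher in only 11 of 16. Tet1, the lowest, ran from 0.509 to 0.742 FPKM, and Tet3 made up 68.0% to 76.5% of the summed Tet FPKM. Raw counts ran from 28164 to 40354 for Dnmt1 down to 564 to 1033 for Tet1, so every member was well above the filter on low counts in every library.

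The CMV-miR-29b vector, with its constitutive promoter, was set against the empty vector. Averaged over cells with and without TGF-β, Dnmt3a fell by 15.8% and Tet3 fell by 14.9%, and the other 6 members did not pass the test. Of all genes, 0.0898% changed. Levels are given as normalised counts, that is counts scaled to a common library size by the TMM method, and differences as log2 fold changes from edgeR's quasi-likelihood test with Benjamini-Hochberg adjustment over 21161 genes. In bulk RNA a lower level in all cells cannot be told apart from a larger fall in the transfected ones, nor fewer cells of a kind from less RNA per cell.

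Tet3, the Tet enzyme with the most transcripts here, had 9478, 10009 and 9393 normalised counts in empty vector cells without TGF-β and 8605, 8256 and 8195 in CMV-miR-29b cells. With TGF-β it had 9297, 9446 and 9687 in empty vector cells and 7695, 8037 and 8010 in CMV-miR-29b cells. All 6 CMV-miR-29b libraries thus lay below all 6 empty vector libraries. The averaged log2 fold change was -0.23 (SE 0.032, adjusted p = 0.016).

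Dnmt3a, a de novo methyltransferase, had 5914, 6026 and 5611 normalised counts in empty vector cells without TGF-β and 5377, 5016 and 4737 in CMV-miR-29b cells. With TGF-β the values were 6538, 5718 and 6065 against 5028, 5113 and 4938. Again the 6 libraries of the vector did not overlap with the 6 controls, and the averaged log2 fold change was -0.25 (SE 0.042, adjusted p = 0.042). Only 0.17% of all genes tested were lower in CMV-miR-29b cells without any overlap between the 6 and 6 libraries, and by adjusted p only 10 genes, 0.0473%, were lower at all. Dnmt3a and Tet3 were 2 of these 10. The Tet3 call was lost without replicate e of CMV-miR-29b cells without TGF-β (adjusted p = 0.062), and the Dnmt3a call was lost with 14 of the 18 libraries left out in turn, at log2 fold changes of -0.26 to -0.22.

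The other 8 genes lower in CMV-miR-29b cells, named here after their values were seen, were Col3a1, Fbn1, Col5a3, Col5a1, Col4a2, Col4a5, Col5a2 and Sept2. All but Sept2, a septin, encode fibrillar or basement membrane collagens or the microfibril protein fibrillin. Each of the 10 held 2 or more seed matches in its 3′ UTR, from 2 in Col3a1, Fbn1, Col4a2 and Col5a2 to 10 in Tet3. The 9 higher genes held none in the 5 that have an annotated 3′ UTR. They included Mir29b-1 itself and the heat shock genes Hspa1b (log2 fold change 0.71), Hspb1 (0.40) and Hsph1 (0.27).

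Across all tested genes the change moved with the number of matches. In the averaged CMV-miR-29b comparison the median log2 fold change was -0.0059 for 11758 genes without a match, -0.031 for 2137 with 1, -0.052 for 357 with 2 and -0.079 for 123 with 3 or more. For the 14 genes with 5 or more it was -0.125, and Tet3, Tet1, Dnmt3a and Tet2 are among them. These classes were not matched for length. In the same comparison long transcripts were also lower, with a median of -0.067 for those of over 9000 to 15000 bases. The part of length in the trend was not tested. Tdg, with 3, was at -0.17 (SE 0.066, adjusted p = 0.32), Tet1, with 8, at -0.16 (SE 0.074, adjusted p = 0.42), Dnmt3b, with 2, at -0.15 (SE 0.073, adjusted p = 0.42) and Tet2, with 5, at -0.09 (SE 0.10, adjusted p = 0.79). None of these 4 passed the test. Dnmt1 and Uhrf1, without a match, were at 0.00 (95% interval -0.06 to 0.06) and 0.04 (-0.03 to 0.10).

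**Figure D2:**
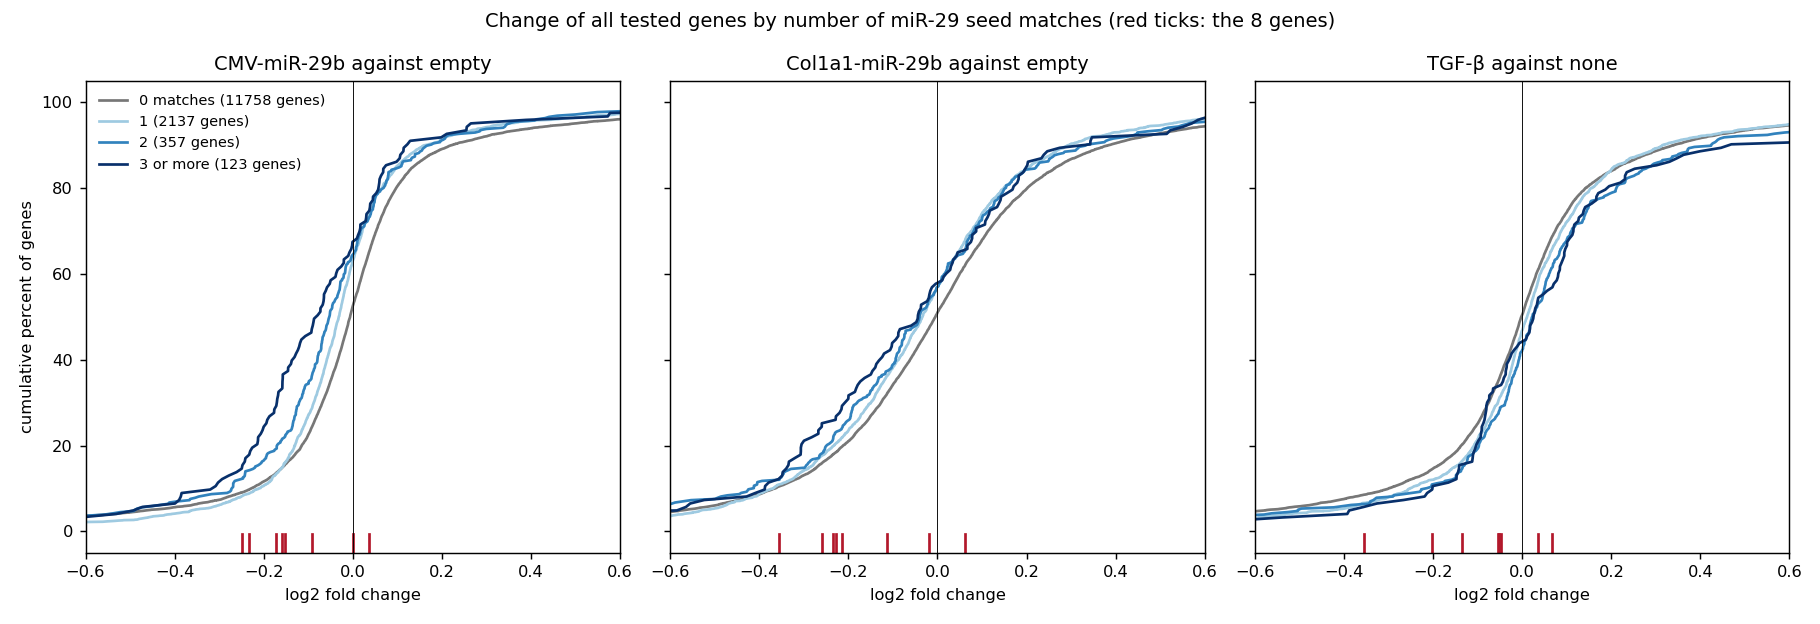
Cumulative percent of tested genes (vertical axis) against the averaged log2 fold change (horizontal axis), by number of miR-29 seed matches in the longest 3′ UTR, in the 3 averaged comparisons; red ticks mark the 8 genes. The curves step to the left with more matches in CMV-miR-29b against empty vector cells, from a median of -0.0059 with 0 to -0.079 with 3 or more. The classes are not matched for length.

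Taken at a single treatment, the CMV-miR-29b vector gave no member past the threshold. edgeR called 0 members without TGF-β and 0 with it, while 1 and 2 genes of all, 0.00473% and 0.00945%, were called. At an unadjusted p under 0.05 there were 4 members without TGF-β and 2 with it, beside 1156 and 2531 of all 21161 genes. DESeq2 called Tet3 without TGF-β and Dnmt3a and Tet3 with it, and its counts over all genes at a single treatment are not given here. The log2 fold change of Tet3 was -0.20 without TGF-β (adjusted p = 0.41) and -0.26 with it (adjusted p = 0.062). That of Dnmt3a was -0.21 (adjusted p = 0.64) and -0.28 (adjusted p = 0.12). Both genes were lower without overlap at either treatment, as were 5.15% of all genes without TGF-β and 8.01% with it.

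The Col1a1-miR-29b vector, whose miR-29b is meant to follow collagen promoter activity, was set against the same empty vector libraries. More members were lower. Averaged over treatments, 5 members passed the test. Tet2 fell by 21.9%, Tet3 fell by 16.5%, Dnmt3b fell by 15.0%, Dnmt3a fell by 14.6% and Dnmt1 fell by 7.54%. This comparison was broad, and 21.8% of all genes changed, 11.6% of all genes downward. The median log2 fold change of the 8 members was -0.22, beside 0.02 over all tested genes.

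Dnmt3a had 5230, 4702 and 5110 normalised counts in untreated Col1a1-miR-29b cells and 5052, 5238 and 5294 after TGF-β, all below the 6 empty vector values given above. Its averaged log2 fold change was -0.23 (SE 0.042, adjusted p = 0.0012), and it passed on its own without TGF-β (-0.22, adjusted p = 0.038) and with it (-0.23, adjusted p = 0.017). For Tet3 there were 8353, 7505 and 8429 in untreated cells and 7842, 7879 and 7866 after TGF-β, again below every control. Its averaged log2 fold change was -0.26 (SE 0.032, adjusted p = 7.1e-05), with -0.25 without TGF-β (adjusted p = 0.0064) and -0.27 with it (adjusted p = 0.0017). Among all genes, 4.81% were lower with no overlap between the 6 and 6 libraries, and at a single treatment 6.27% were called in untreated cells and 12.9% after TGF-β. The single-treatment calls of Dnmt3a were lost in untreated cells when replicate d or the unlettered library of the vector or replicate c or d of the control was left out (adjusted p = 0.12, 0.070, 0.094 and 0.11). After TGF-β they were lost without replicate c of the vector or replicate c or e of the control (adjusted p = 0.074, 0.075 and 0.061).

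Tet2, which oxidises 5-methylcytosine without a CXXC domain of its own, varied most between libraries. It had 3173, 2649 and 3215 normalised counts in empty vector cells and 2871, 1913 and 2097 in Col1a1-miR-29b cells, both untreated, so that 1 vector library lay inside the control range. With TGF-β it had 2210, 2317 and 2438 against 2014, 1725 and 1837. The averaged log2 fold change was -0.36 (SE 0.10, adjusted p = 0.022), the largest of the members in size, and neither treatment passed alone (-0.39, adjusted p = 0.12, and -0.32, adjusted p = 0.18). Without replicate c of untreated Col1a1-miR-29b cells, the library inside the control range, the untreated value was -0.59 and passed (adjusted p = 0.029). The averaged call was lost without the unlettered library of untreated Col1a1-miR-29b cells (adjusted p = 0.052) and without replicate e of empty vector cells with TGF-β (adjusted p = 0.050).

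Dnmt3b, the other de novo enzyme, had 814, 887 and 844 normalised counts in empty vector cells and 716, 777 and 617 in Col1a1-miR-29b cells, both untreated, and 766, 816 and 804 against 735, 694 and 652 after TGF-β. The groups did not overlap at either treatment, where 14.1% and 15.2% of all genes were lower in this way. The averaged log2 fold change was -0.23 (SE 0.073, adjusted p = 0.030). It did not pass without the unlettered library of either Col1a1-miR-29b group (adjusted p = 0.073 untreated and 0.064 after TGF-β), without replicate d of untreated empty vector cells (0.068) or without replicate e of empty vector cells after TGF-β (0.062). Dnmt1, the maintenance enzyme, had 36340, 35999 and 36017 against 33869, 32289 and 33893 without TGF-β, groups that did not overlap, and its averaged log2 fold change was -0.11 (SE 0.028, adjusted p = 0.0088). Tet1 was at -0.21 (SE 0.074, adjusted p = 0.051), just outside the threshold. It passed with DESeq2 (adjusted p = 0.021), which called 6 members in this comparison, with DESeq2's size factors (0.044), with groups fitted alone (0.034), with counts divided by 4 (0.036) and with 5 of the 18 libraries left out in turn. Tdg was at -0.02 (95% interval -0.16 to 0.12) and Uhrf1 at 0.06 (-0.0026 to 0.13).

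**Figure D3:**
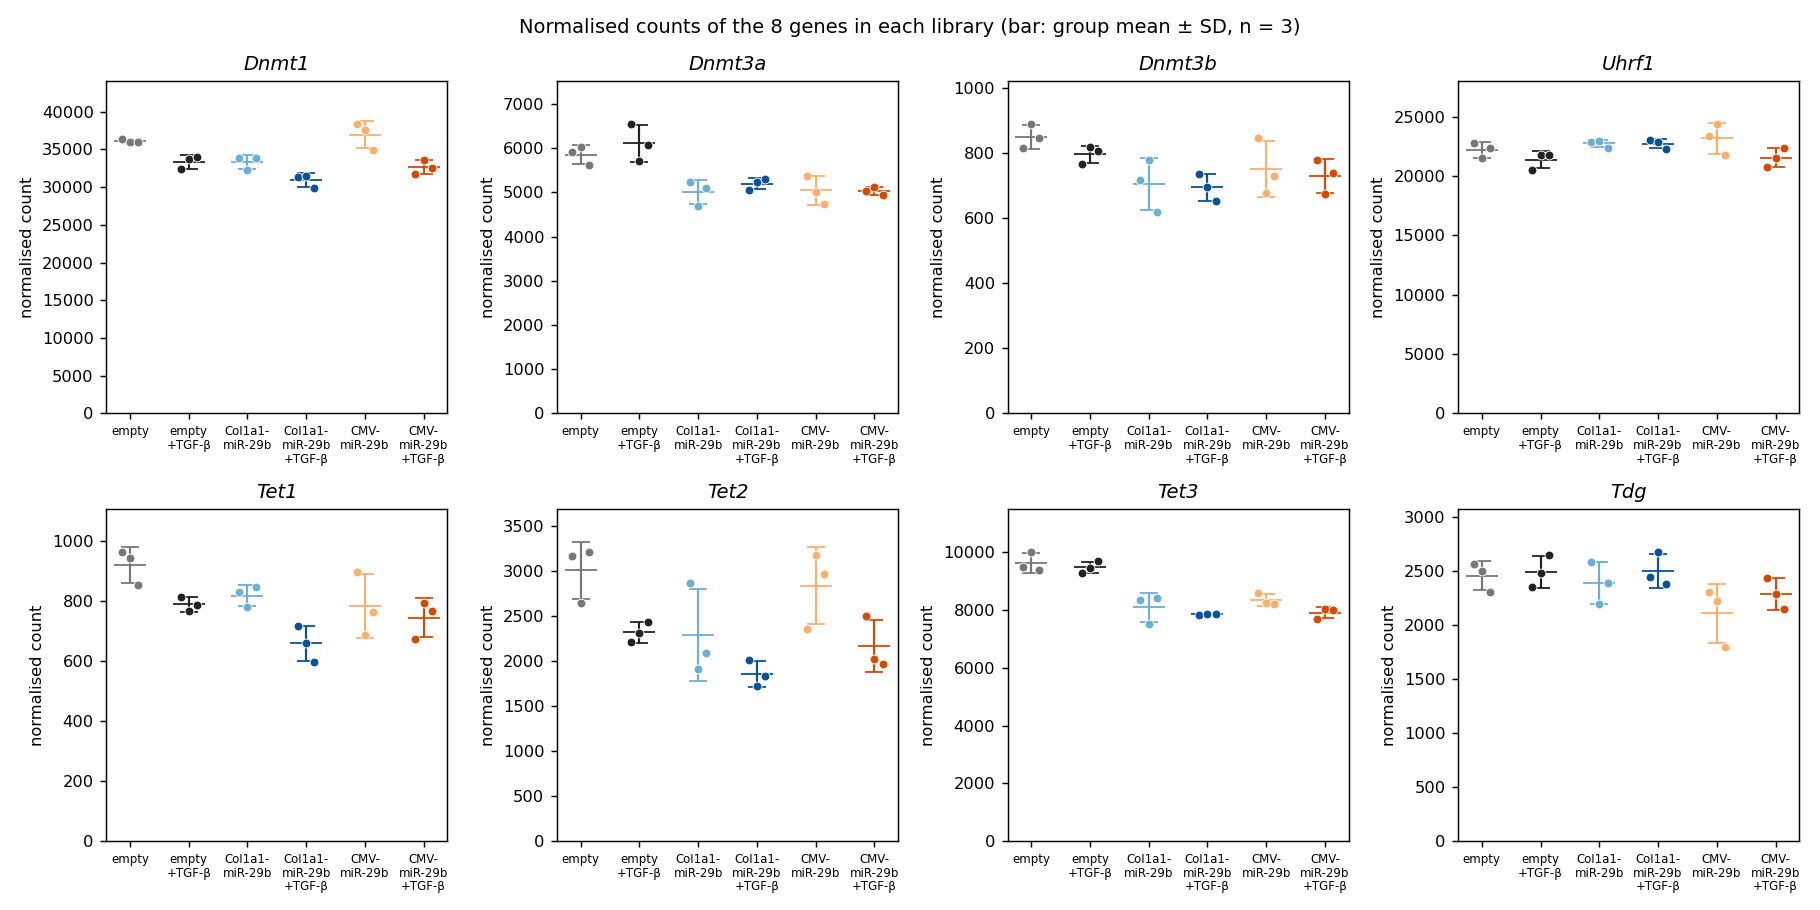
Normalised counts of each gene (vertical axes, from 0) in the 3 libraries of each of the 6 groups; points are libraries, bars the group mean ± SD (n = 3). Dnmt3a and Tet3 are lower in all 12 libraries of both miR-29b vectors than in the 6 empty vector libraries, Dnmt1 and Tet2 are lower with TGF-β in the means of all 3 vectors, and Uhrf1 and Tdg show no shift that passed the test.

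Transcript length moved with the Col1a1-miR-29b result. Against the empty vector, the median of the log2 fold changes went from 0.19 for genes whose longest transcript was up to 1000 bases to -0.18 for the 460 genes of over 9000 to 15000 bases. In the CMV-miR-29b comparison it went from 0.10 to -0.067 over the same classes. Tet1, Tet3, Dnmt3a and Tet2 are long, with transcripts of 14369, 10904, 9685 and 9179 bases, and Dnmt3a and Tet3 lay within the interquartile range of their length class in Col1a1-miR-29b cells (-0.32 to -0.022) and below it in CMV-miR-29b cells (-0.14 to 0.0065). Tet2 showed the opposite, below the range in Col1a1-miR-29b cells and inside it in CMV-miR-29b cells, and Tet1 was inside the first and below the second. Dnmt3b, of 4320 bases, was below the range of its class in both (-0.19 to 0.099 and -0.0997 to 0.053). Offsets that take out a smooth trend with length and GC content in each library were therefore added after the data were seen. With them no member was called lower in Col1a1-miR-29b cells. The averaged log2 fold changes were -0.02 for Dnmt3a (adjusted p = 0.82), -0.02 for Tet3 (0.71), -0.01 for Dnmt1 (0.77), -0.18 for Dnmt3b (0.11) and -0.14 for Tet2 (0.44), Tet1 turned to 0.11 (0.31) and Tdg to 0.03 (0.85), and Uhrf1 rose to 0.09 (0.013). At a single treatment Dnmt3a and Tet3 were then at -0.05 and -0.06 without TGF-β and at 0.02 and 0.02 with it. In CMV-miR-29b cells Dnmt3a and Tet3 remained below the control with the offsets, at -0.18 and -0.15, but did not pass the test (adjusted p = 0.094 for each), and Col3a1 was then the only gene called lower.

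**Figure D4:**
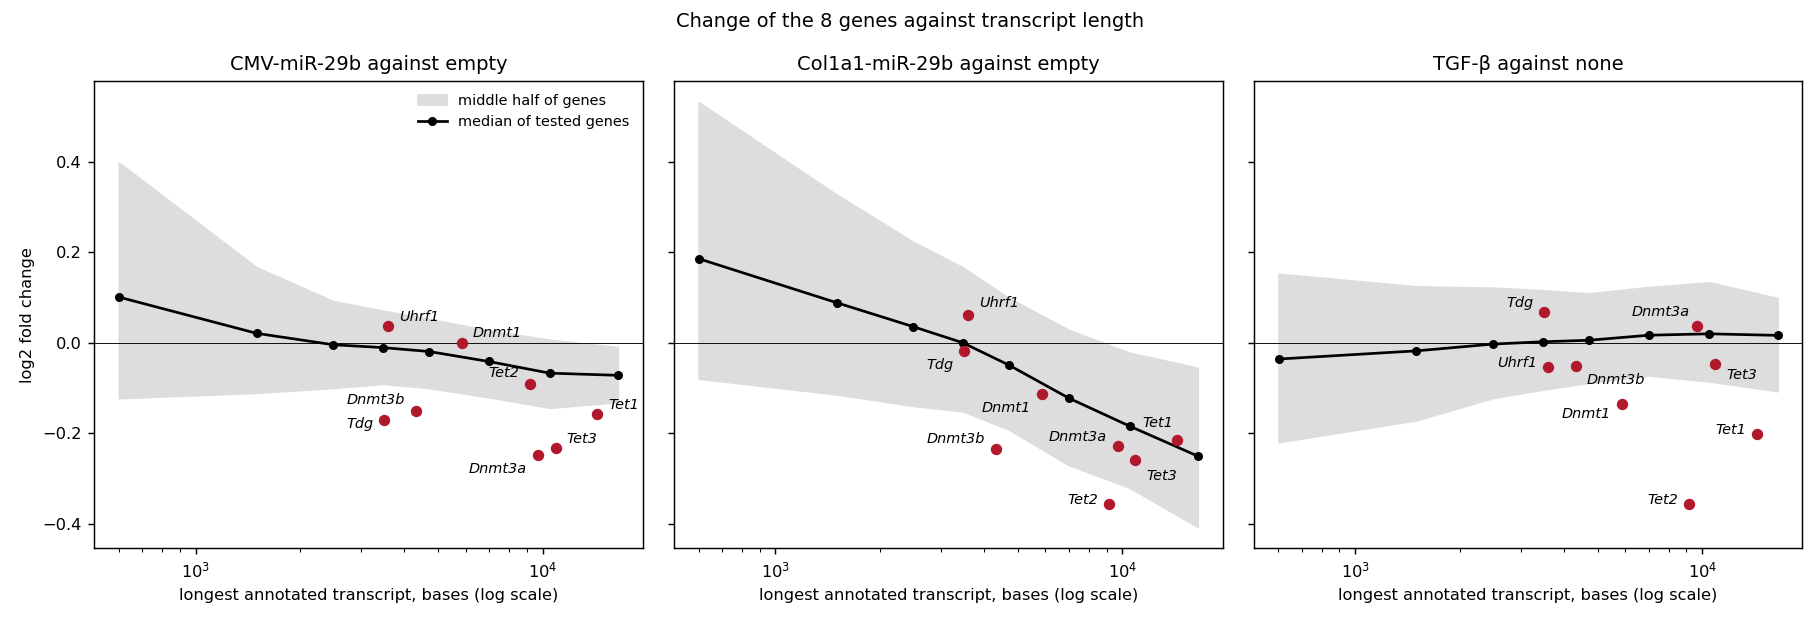
Averaged log2 fold change (vertical axis) against the longest annotated transcript (horizontal axis, log scale) for the 8 genes (red) and, by length class, the median (line) and interquartile range (grey) of all tested genes. Dnmt3a and Tet3 lie below the interquartile range of genes of their length in CMV-miR-29b cells and within it in Col1a1-miR-29b cells, and Tet2 the other way round.

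The 2 vectors were also set against each other at each treatment. edgeR called 0 members at both, where 1.81% and 1.93% of all genes were called. At an unadjusted p under 0.05 there was 1 member, Dnmt1, without TGF-β and there were 0 with it, beside 3478 and 3305 of all 21161 genes. DESeq2 called Dnmt1 without TGF-β and 0 with it. Dnmt1 had 38324, 37607 and 34939 normalised counts in CMV-miR-29b cells without TGF-β, above all 3 of the Col1a1-miR-29b libraries, as 10.9% of all genes were (log2 fold change 0.15, SE 0.039, adjusted p = 0.070). With the length and GC offsets this difference was 0.08 (adjusted p = 0.20). For Tet3 the difference was 0.05 (95% interval -0.05 to 0.14) without TGF-β and 0.01 (-0.09 to 0.11) with it, and for Dnmt3a it was 0.01 (-0.12 to 0.13) and -0.05 (-0.17 to 0.08). Tet2 was at 0.31 (-0.0032 to 0.62) and 0.22 (-0.09 to 0.53), so the spread between libraries left a wide interval. The untreated value was 0.51 without replicate c and 0.20 without replicate d of Col1a1-miR-29b cells, and the other 0.11 without replicate c of CMV-miR-29b cells. These values share their libraries with the comparisons above.

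**Figure D5:**
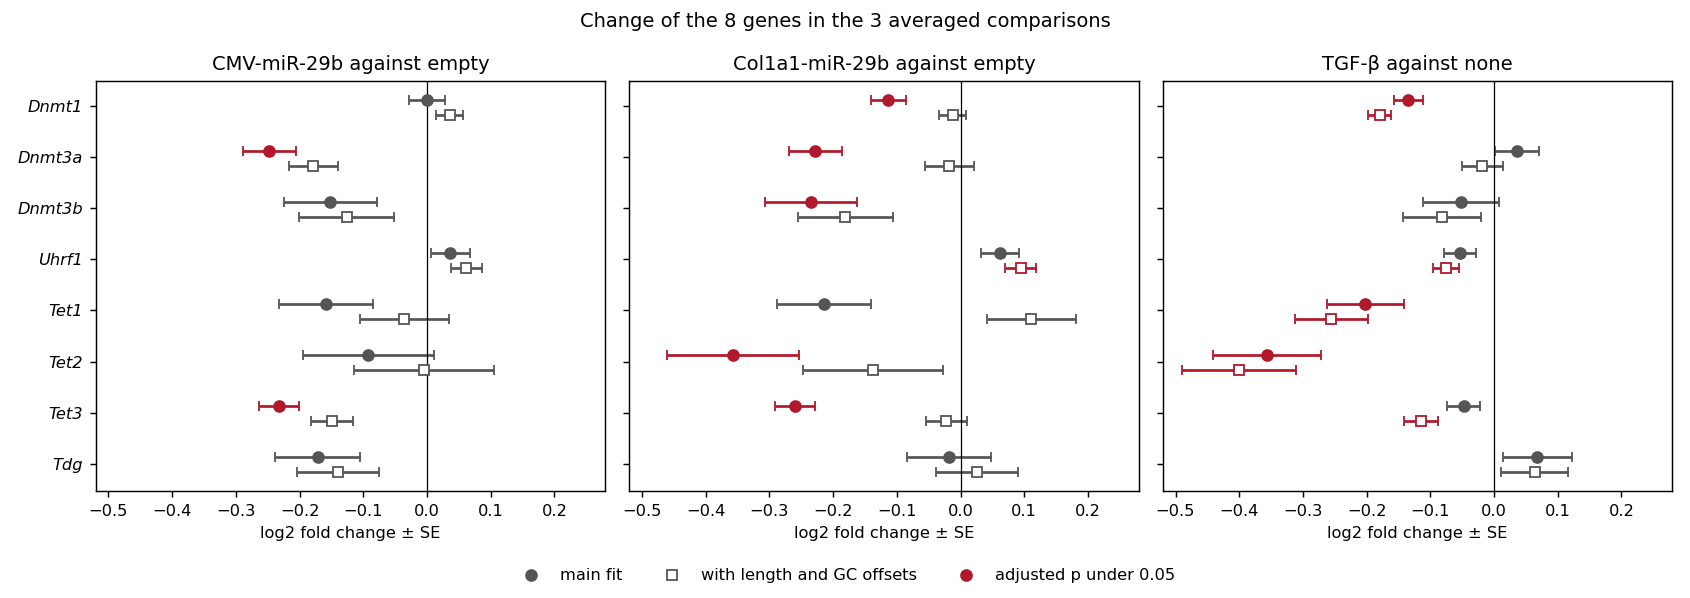
Averaged log2 fold change ± SE (horizontal axis) of the 8 genes in 3 comparisons, from the main fit (circles) and after offsets taken from transcript length and GC content (squares); red marks an adjusted p under 0.05. Relative to the empty vector, Dnmt3a and Tet3 are lower with CMV-miR-29b in both fits but pass only in the main fit. The 5 falls with Col1a1-miR-29b also pass only in the main fit. Dnmt1, Tet1 and Tet2 are lower with TGF-β and pass in both fits.

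TGF-β addressed how a fibrotic stimulus moved these genes. Averaged over the 3 vectors, Tet2 fell by 21.9%, Tet1 fell by 13.1% and Dnmt1 fell by 8.92%, and the other 5 members did not pass the test. Of all genes 13.7% changed and 5.86% were lower. The stimulus itself was visible, since the TGF-β responders Ccn2, Acta2, Smad7 and Tagln rose by log2 fold changes of 1.05 to 1.79. Markers of other cells moved with it too. Of 3 tested endothelial markers 1 rose, Cdh5 (log2 fold change 1.11, adjusted p = 0.00041), and the list summed to 0.699 to 1.65 CPM (counts scaled to library size) in untreated libraries and 2.03 to 3.03 CPM after TGF-β. Of 2 tested epithelial markers 1 rose, Krt8 (adjusted p = 0.017), with a summed level of 0.0509 to 0.525 CPM untreated and 0.137 to 0.964 CPM after TGF-β, and Epcam had at most 4 counts. The part of these markers in the values of Tet2, Tet1 and Dnmt1 was not tested.

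Dnmt1 had 32349, 33723 and 34052 normalised counts in empty vector cells with TGF-β, 31395, 31466 and 29837 in Col1a1-miR-29b cells and 31711, 33573 and 32568 in CMV-miR-29b cells. In each vector these 3 values lay below all 3 without TGF-β, which 9.69%, 10.2% and 9.89% of all genes also did. The averaged log2 fold change was -0.13 (SE 0.023, adjusted p = 0.00059). Only CMV-miR-29b cells passed alone, at -0.18 (adjusted p = 0.012), beside 4.95% of all genes, and this call was lost without replicate c of either CMV-miR-29b group. In empty vector and Col1a1-miR-29b cells the values were -0.11 (adjusted p = 0.12) and -0.11 (adjusted p = 0.17). Left-out values were -0.16 (adjusted p = 0.089, TGF-β) and -0.15 (0.077, untreated). With the length and GC offsets Dnmt1 passed in all 3 vectors, at -0.17, -0.15 and -0.22.

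Tet2 with TGF-β had 2501, 2030 and 1971 normalised counts in CMV-miR-29b cells, against 2363, 3187 and 2970 without it. In empty vector cells all 3 values with TGF-β were below the 3 without it, as they were for 9.69% of all genes. In the other vectors the ranges met. The log2 fold changes were -0.38, -0.30 and -0.39 in empty vector, Col1a1-miR-29b and CMV-miR-29b cells (adjusted p = 0.18, 0.37 and 0.18). The second of these was -0.12 (adjusted p = 0.85) without replicate c of untreated Col1a1-miR-29b cells. Averaged, it was -0.36 (SE 0.084, adjusted p = 0.0088).

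Tet1 had 963, 945 and 852 normalised counts in empty vector cells without TGF-β and 813, 766 and 786 with it. In Col1a1-miR-29b cells it had 829, 779 and 846 untreated and 716, 661 and 597 after TGF-β, and in CMV-miR-29b cells 897, 686 and 764 without and 672, 794 and 768 with it. The groups did not overlap in the first pair of vectors and did in the third. Of all genes, 9.69% and 10.2% were lower without overlap in that first pair. The log2 fold changes were -0.22, -0.31 and -0.07 (adjusted p = 0.29, 0.13 and 0.85), and the averaged value was -0.20 (SE 0.061, adjusted p = 0.036). With the length and GC offsets empty vector cells passed alone, at -0.36 (adjusted p = 0.040). The averaged call did not hold with 10 of the 18 libraries left out in turn, with log2 fold changes from -0.21 to -0.17 in those fits. It was also lost with a filter of at least 1 count in any library (adjusted p = 0.052) and with limma on FPKM (0.13 and 0.24). Without the 2 unlettered libraries it was lost as well, both with the letters as a block (0.15) and without them (0.12).

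In empty vector and in Col1a1-miR-29b cells edgeR called 0 members for TGF-β, beside 5.88% and 4.32% of all genes. There were 2 members in each at an unadjusted p under 0.05, beside 3597 and 3025 of all 21161 genes, and DESeq2 called 0 in each. Tet3 was at -0.05 averaged (SE 0.026, adjusted p = 0.29) and passed with the length and GC offsets at -0.11 (adjusted p = 0.0078), as did Uhrf1 at -0.08 (adjusted p = 0.017, and -0.05 with adjusted p = 0.20 without the offsets). Dnmt3a, Dnmt3b and Tdg were at 0.04, -0.05 and 0.07, and Dnmt3a was at -0.02 with the offsets.

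Whether a vector altered the response to TGF-β was tested as a difference of differences. edgeR called 0 members for either vector, and 0 genes of all. At an unadjusted p under 0.05 there were 0 members, beside 961 (Col1a1-miR-29b) and 1129 (CMV-miR-29b) of all 21161 genes, and DESeq2 called 0. The 16 estimates lay between -0.09 and 0.15 on the log2 scale. The intervals were wide for the scarcer transcripts, from -0.41 to 0.23 for Tet1 and -0.37 to 0.51 for Tet2 with the Col1a1 vector, and narrower for Tet3, from -0.15 to 0.12.

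The genes around these enzymes were described from fixed lists. Of 17 tested readers and cofactors of DNA methylation, 6 fell in Col1a1-miR-29b cells, beside 11.6% of all genes. Among them were the RNA methyltransferase Trdmt1 (log2 fold change -0.48), Uhrf2 (-0.23) and the deubiquitinase Usp7 (-0.18), together with the chromatin remodeller Hells and the binding protein Mbd2. With the length and GC offsets 3 of the 17 were lower and 1 higher. In CMV-miR-29b cells edgeR called 0 of 17 (2 at an unadjusted p under 0.05, DESeq2 0), and with TGF-β 0 of 17 (5 and 0).

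Of 23 tested partners in oxidation and base excision repair, TGF-β raised Gadd45g (log2 fold change 0.86), a stress-induced gene linked to demethylation, and lowered the O-GlcNAc transferase Ogt (-0.26), the glycosylase Neil3 (-0.16) and Parp1 (-0.16), a sensor of strand breaks. In Col1a1-miR-29b cells Gadd45b (0.30) and Parp1 (0.11) rose and Ogt fell (-0.37). The TGF-β and Col1a1-miR-29b comparisons called 13.7% and 21.8% of all genes, so these calls do not set the list apart from other genes. With the length and GC offsets 1 of the 23 was higher and 3 lower in Col1a1-miR-29b cells. In CMV-miR-29b cells edgeR called 0 of the 23 (4 at an unadjusted p under 0.05, DESeq2 0). The list's median was -0.05 there, 0.03 in Col1a1-miR-29b cells and 0.02 with TGF-β, beside medians over all genes of -0.00032, 0.02 and -0.0054.

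Of 12 tested miR-29 targets outside this enzyme group, mostly collagens, 5 fell in CMV-miR-29b cells: Col3a1 (log2 fold change -0.54), Fbn1 (-0.27), Col5a1 (-0.25), Col4a2 (-0.24) and Col5a2 (-0.23). The values of Dnmt3a and Tet3 in the same comparison, -0.25 and -0.23, were of the size of the last 3. Of all genes 0.0473% were lower there. In Col1a1-miR-29b cells 9 of the 12 fell and 1 rose, beside 11.6% of all genes lower and 21.8% changed. With the length and GC offsets 5 were lower and 1 higher. With those offsets 1 of the 12, Col3a1, was lower in CMV-miR-29b cells. With TGF-β, where 13.7% of all genes changed, 10 rose and 1 fell, among them Col1a2 (1.29) and Col1a1 (1.14), whereas no member rose.

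Dnmt1 and Uhrf1 are expressed with DNA replication, so cell cycle genes were read beside them. In Col1a1-miR-29b cells 8 of 24 S phase genes rose, led by the cyclin Ccne1 (log2 fold change 0.61), the replication clamp Pcna (0.29) and the histone mRNA binding protein Slbp (0.26), and 0 fell. Of 14 G2/M genes 5 fell and 1 rose there, where edgeR called 21.8% of all genes and 11.6% were lower. With the length and GC offsets 11 of the 24 S phase genes were higher and 0 lower, and 5 G2/M genes were lower and 4 higher. The S phase genes summed to 5872 to 6023 CPM in Col1a1-miR-29b cells, against 5485 to 5537 in empty vector cells, both untreated, and the G2/M genes to 3606 to 3684 against 3943 to 4068. In CMV-miR-29b cells edgeR called 0 of 24 and 0 of 14 (6 and 6 at an unadjusted p under 0.05, DESeq2 0 and 1). With TGF-β, where Dnmt1 fell, 1 S phase gene rose (Rrm2, 0.11), 1 fell (E2f1, -0.13) and 2 G2/M genes fell (Mki67 and Kif11). The part of these shifts in the values of Dnmt1 was not tested.

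Germline genes that CpG methylation keeps silent in somatic cells were looked at last. Of 12 in the table, 4 had enough reads to be tested. In the averaged CMV-miR-29b, Col1a1-miR-29b and TGF-β comparisons edgeR called 0 (0, 1 and 1 at an unadjusted p under 0.05, DESeq2 0, 1 and 0). At a single treatment Tdrkh was lower in Col1a1-miR-29b than in empty vector cells with TGF-β (-0.33, adjusted p = 0.011), beside 12.9% of all genes called. The list summed to 33.6 to 50.9 CPM in a library, so not all of its genes were silent here. DNA methylation itself was not measured.

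Over the 18 libraries Tet3 and Dnmt3a moved together, with Pearson's r of 0.86 on log2 CPM. Among 10019 other genes averaging 10 CPM or more, Tet3 was the second most alike to Dnmt3a, after Wasf2 (r = 0.86), and Dnmt3a was the most alike to Tet3, before G2e3 (0.86). Dnmt1 was most like 2610507B11Rik (0.95), Uhrf1 most like Mast3 (0.89) and Scrib (0.86), and Tet2 most like Lmln (0.84) and Kri1 (0.83). Tet1 was most like Nars2 (0.84) and the TGF-β receptor gene Tgfbr2 (0.84), Dnmt3b most like Gtf2i (0.85) and Mapk7 (0.82), and Tdg most like Susd6 (0.81) and Senp8 (0.76). The libraries share their group means, so these values describe these samples only.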

How the data were processed

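The deposited table gave counts per gene for 18 libraries and FPKM values. The authors trimmed reads with cutadapt, checked them with FastQC, mapped them with HISAT2 to the mouse genome of an Ensembl release that the study names and assembled transcripts with StringTie. Tool versions and the counting step are not given in the sources used here. The labels list mm9, but gene coordinates in the deposited table are those of GRCm38, and 52506 of 55450 genes had coordinates identical to GENCODE M21. The authors' FPKM values are scaled by transcript length and library size, with 0.0001 where the count is 0. 2 FPKM columns match no label and were not used, and their 2 count columns were assigned by group name.

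Counts were tested with edgeR 4.0.16 (TMM scaling, filterByExpr, quasi-likelihood, 1 mean per group, all 18 libraries) in R 4.3.3, at an adjusted p under 0.05 over 21161 genes. Averaged comparisons weight treatments or vectors equally. Alternatives were DESeq2 1.42.0, other scalings and filters, limma 3.58.1 on log2(FPKM + 1) and log2(FPKM + 0.1), groups fitted alone, a replicate block, each library left out, counts divided by 4 (low counts held many multiples of 4), and offsets from splines of transcript length and GC content. The last 2, and the fit of the 16 lettered libraries without the block, were added after the data were seen. The code of the fits was tried on simulated counts, with less spread between libraries than the common estimate in these data. That trial does not measure how well the fits do here. All 8 members passed the filter. The members and gene lists were chosen with earlier results of these data known. The genes named were the 8 members, up to 4 of each list with the largest change among those called (Hells and Mbd2 are named beyond that), and the 2 genes most alike to each member. A few genes that this rule names are not reported here. The study describes its libraries as repeated experiments, 3 in each group. The p-values set a difference against the spread between libraries, with 1 estimate of that spread shared by all 6 groups. Over 10020 genes, same-letter libraries of different groups deviated together in 6 of 36 pairs (r over 0.1), against 5 of 70 different-letter pairs. Letters were not used as pairs in the main fit, and a fit with them as a block is given below.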

Additional observations from a re-analysis of the deposited data

How the results depend on the processing

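Here, against a miR-29b vector means cells with that vector compared with empty vector cells. DESeq2 called 1 member against the CMV-miR-29b vector in untreated cells and 2 after TGF-β, where edgeR called 0. It called 1 between the vectors in untreated cells, again where edgeR called 0. For TGF-β in empty vector cells, where edgeR called 0, total-count scaling and both limma fits called 1. Fitting groups alone moved TGF-β in CMV-miR-29b cells from 1 to 0, Col1a1-miR-29b from 2 to 0 in untreated cells and from 2 to 1 after TGF-β, and the averaged CMV-miR-29b comparison from 2 to 0. Both limma fits gave 1 for Col1a1-miR-29b at each treatment, 2 averaged where edgeR gave 5, and 0 for CMV-miR-29b averaged. The looser filter gave 1 for Col1a1-miR-29b in untreated cells. Over the settings other than a left-out library, 161 to 2362 of all genes were called for Col1a1-miR-29b in untreated cells. After TGF-β there were 1072 to 3488, and averaged 2902 to 5283. For CMV-miR-29b there were 0 to 37 in untreated cells and 1 to 284 after TGF-β. For TGF-β there were 618 to 1766 in empty vector cells and 527 to 1518 in CMV-miR-29b cells. Between the vectors in untreated cells there were 18 to 1225.

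The replicate block used the 16 lettered libraries. It left 0 members for Col1a1-miR-29b in untreated cells, 2 averaged, 0 for CMV-miR-29b averaged and 2 for TGF-β averaged. The same libraries without the block gave 1, 3 and 1 for the first 3 of these. Same-letter pairs of libraries had a mean r of 0.0126, and 6 of 36 were over 0.1. For different-letter pairs the mean r was -0.00675, and 5 of 70 were over 0.1. The main fit did not take the letters as pairs. As a hint from the data, 9 of 16 libraries were most alike to one of their own letter. The block left 1 gene of all in the averaged CMV-miR-29b comparison, against 19 in the main fit, 343 with DESeq2, 9 and 5 with limma, 2 with groups alone, 28 with counts divided by 4 and 8 with the length and GC offsets.

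The length and GC offsets called 2 members for TGF-β in empty vector cells, 1 in Col1a1-miR-29b cells and 5 averaged. Against Col1a1-miR-29b they left 0 at each treatment and 1 averaged, Uhrf1, which was higher, and against CMV-miR-29b 0 averaged. Signs turned for Dnmt3a (0.0198) and Tet3 (0.0175) against Col1a1-miR-29b after TGF-β, for Tet2 against CMV-miR-29b after TGF-β (0.0114), for Dnmt3a with TGF-β averaged (-0.0185), for Tet1 (0.111) and Tdg (0.0258) against Col1a1-miR-29b averaged and for Dnmt1 against CMV-miR-29b averaged (0.0354), as log2 fold changes. Near 0, Tdg also turned with total counts (0.0136) and limma (0.0253 and 0.0291), and Dnmt1 with total counts (0.0152) and limma (0.0148 and 0.0150). Where the cause is not in the construction of an alternative, it was not tested.

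Leaving out 1 library in turn gave 0 to 1 members for TGF-β in CMV-miR-29b cells, 1 to 3 for Col1a1-miR-29b in untreated cells and 1 to 2 after TGF-β, and 3 to 6 averaged. It gave 0 to 2 for CMV-miR-29b after TGF-β and averaged, and 0 to 1 between the vectors in untreated cells. Log2 fold changes whose sign turned ran from -0.164 to 0.0379 for Tet1 with TGF-β in CMV-miR-29b cells, from -0.180 to 0.0163 for Tet2 against CMV-miR-29b in untreated cells, from -0.0551 to 0.00143 for Tdg against Col1a1-miR-29b averaged and from -0.0246 to 0.0199 for Dnmt1 against CMV-miR-29b averaged.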
